A study of Mus musculus with 5 samples.

Results

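Chemokine and chemokine receptor genes were examined in RNA of dermal group 2 innate lymphoid cells (dILC2s) sorted from the skin of wild-type (WT) and Rag1-/- mice. Members were the rows of the count table whose gene symbol names a CC, CXC, C or CX3C chemokine or its receptor, an atypical chemokine receptor, Ccrl2, Pf4 or Ppbp. This gave 73 of 47729 gene rows, with 67 symbols, of which 49 rows were ligands and 24 were receptors. The study asked how the lack of Rag1 bears on the transcriptome of dILC2s.

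All mice were female C57BL/6 animals of 8 to 13 weeks, either WT or Rag1-/-, a knockout that leaves mice without mature T and B cells. The cells were sorted as viable CD45+ CD90hi skin cells without CD2 or CD3 signal, were not stimulated, and came from 30 WT and 16 Rag1-/- mice by the labels, although the methods of the study give another number of Rag1-/- mice. Each library was a pool of mice, with 3 WT pools (numbered 5, 6 and 13) and 2 Rag1-/- pools (numbered 2 and 7), so a p-value measures the spread between pools and not between mice. The labels of both Rag1-/- libraries name type 3 innate lymphoid cells as the cell type, while the protocols of the same samples name dILC2s.

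Chemokines are small secreted proteins that direct the movement of leukocytes along a gradient. They act through membrane receptors that signal by inhibitory G proteins, whereas atypical receptors bind or clear the ligand without that signal. In skin, Ccr4, Ccr8 and Ccr10 are known as receptors of skin-homing lymphocytes, Ccr6 answers to Ccl20 from epithelium, and Cxcr6 answers to the membrane-bound ligand Cxcl16. Levels below are CPM, the count of a gene over the total count of its library, scaled to 1000000 counts. Differences are log2 fold changes, labelled Rag1-/- minus WT, from the quasi-likelihood test of edgeR over all genes, and a gene was called where its Benjamini-Hochberg adjusted p was under 0.05 and its log2 fold change exceeded 1 in size.

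The total counts were 32939428 to 39477243 in the WT libraries, 8050562 in labelled Rag1-/- pool 2 and 38922750 in pool 7. A count of 3 stands for 0.0760 to 0.0911 CPM in the WT libraries and in pool 7 for 0.0771 CPM, but for 0.373 CPM in the shallower pool 2, where low genes are the least certain. The targeted gene, Rag1, was low in all libraries, with 4, 0 and 5 reads counted over WT pools 5, 6 and 13 (0.103, 0 and 0.152 CPM). Labelled Rag1-/- pool 2 held 5 counts and pool 7 held 48 counts (0.621 and 1.23 CPM), both above all WT pools. The log2 fold change was 3.53 (SE 1.03, edgeR adjusted p = 0.0865), and DESeq2 called Rag1 higher. The count covers the whole gene, and the sources used here do not say which part the knockout removes, so it does not check the genotype, which is taken from the labels. The 30 leukocyte genes of a marker list summed to 1283, 3057 and 3080 CPM in WT pools 5, 6 and 13 and to 9991 and 9054 CPM in labelled Rag1-/- pools 2 and 7. The 12 keratinocyte genes summed to 28134 to 39611 CPM in WT and to 7149 and 16237 CPM in the libraries labelled Rag1-/-. All 31 leukocyte rows, with 1 symbol listed more than once, had a positive log2 fold change (median 2.00, 20 called higher), and all 12 keratinocyte genes had a negative one (median −1.54, 5 called lower). WT pool 5 stood apart from the other WT pools with the least leukocyte and the most keratinocyte RNA. In bulk RNA, fewer cells of a type and less RNA per cell cannot be told apart. Of the list of 14 ILC2 markers, with Gata3, Il7r and Il13 among them, all had counts in every library. Of these, 13 were higher in both libraries labelled Rag1-/- than in any WT pool, and 5 were called higher. Of all genes tested, 21.9% were higher in this way, 3.57% were called higher and 2.16% were called lower.

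The summed level of signalling chemokine receptors was higher in both libraries labelled Rag1-/- than in any WT pool, while the summed levels of ligands and of atypical receptors overlapped. Ccr6, Ccr7, Cxcr4, Cxcr6 and Cx3cr1 were called higher, with log2 fold changes between 2.08 and 2.92. Among ligands Ccl1, Ccl5 and Cxcl3 were called higher, with log2 fold changes between 2.42 and 3.25. Of all genes tested, 3.57% were called higher. No member was called lower by edgeR, although 2 receptors and 1 ligand were lower at an unadjusted p under 0.05, and DESeq2 called Ackr2 lower. With libraries scaled on the leukocyte list instead, no member was called higher and 27 were called lower, against 69.2% of all genes called lower. The 3 WT pools held 189, 553 and 497 CPM over all 19 signalling receptors, and the 2 labelled Rag1-/- pools held 1704 and 1772 CPM. The 49 ligand rows summed to 1236, 1083 and 1334 CPM in WT and to 1150 and 1365 CPM in the libraries labelled Rag1-/-, so the groups overlapped.

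**Figure D1:**
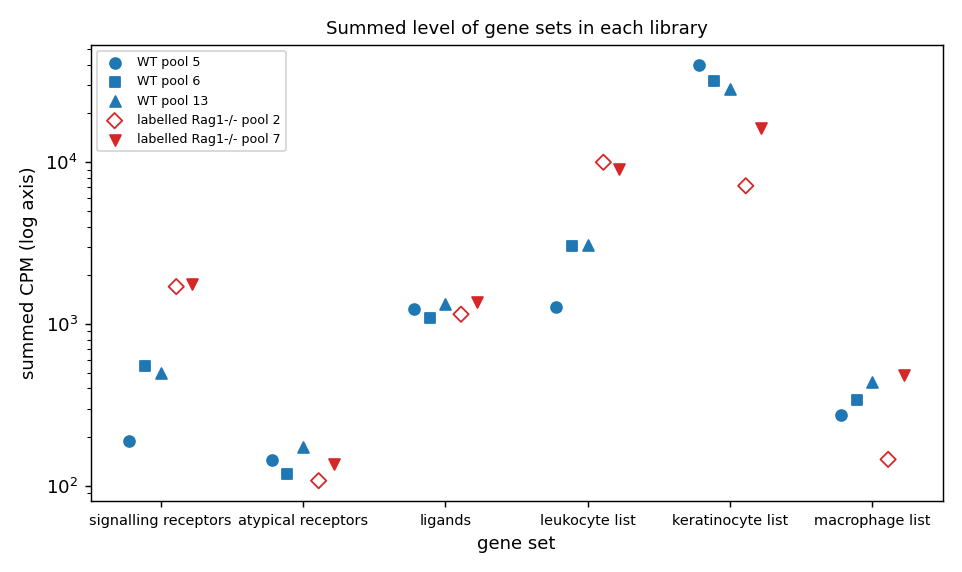
Summed CPM (log axis) of signalling receptors, atypical receptors, ligands and 3 marker lists, with 1 point per library. Signalling receptors and the leukocyte list were higher in both labelled Rag1-/- pools than in any WT pool, the keratinocyte list was lower in both, and the points of atypical receptors, ligands and the macrophage list overlapped or lay on both sides of WT.

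Of the 73 rows, 13 ligand rows had no count in any library (Ccl21a, Ccl21b and Ccl21c in all their copies, Ccl27b, Ccl26, Cxcl15, Ccl19-ps3 and further copies of Ccl19 and Ccl27a). Near-identical copies share reads that a counter may drop, so a row of 0 for the Ccl21, Ccl19 and Ccl27 copies is uncertain and does not say that no copy was transcribed. A count of 0 in each library allows up to 3 counts, or 0.0760 to 0.373 CPM. The other 60 rows had counts, 55 of them passed the filter on low counts (22 receptors and 33 ligands), and Ccl19-ps1, Cxcl17, Ppbp, Ccr1l1 and Cxcr1 did not. Above 3 counts in every library were 48 rows.

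By the coordinates of the count table (GRCm38), the called receptors lie at chr17:8236043-8257127 (Ccr6), chr11:99144196-99155077 (Ccr7), chr1:128588199-128592293 (Cxcr4), chr9:123806477-123811754 (Cxcr6) and chr9:119901616-120068283 (Cx3cr1). The called ligands lie at chr11:82176657-82305690 (Ccl1), chr11:83525778-83530518 (Ccl5) and chr5:90786103-90789600 (Cxcl3).

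Counted over receptors, 5 of 22 tested were called higher (22.7%) and 0 were called lower, against 3.57% of all 19011 tested genes called higher and 2.16% called lower. For ligands, 3 of 33 were called higher (9.09%) and 0 lower. The median log2 fold change was 1.87 over 17 signalling receptors, −0.30 over 5 atypical receptors and 0.29 over 33 ligands, against 0.02 over all genes tested. With DESeq2, 10 receptors were called higher and 1 lower, and 5 ligands higher and 0 lower (1 lower at an unadjusted p under 0.05), where 6.99% of the genes it tested were called higher and 7.32% lower. Ccr2, Ccr8 and Xcr1 were among the receptors that DESeq2 added. Both labelled Rag1-/- pools lay above all WT pools for 13 receptors and below them for 4, and for ligands above in 9 and below in 5, where this held for 21.9% and 24% of all genes tested.

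**Figure D2:**
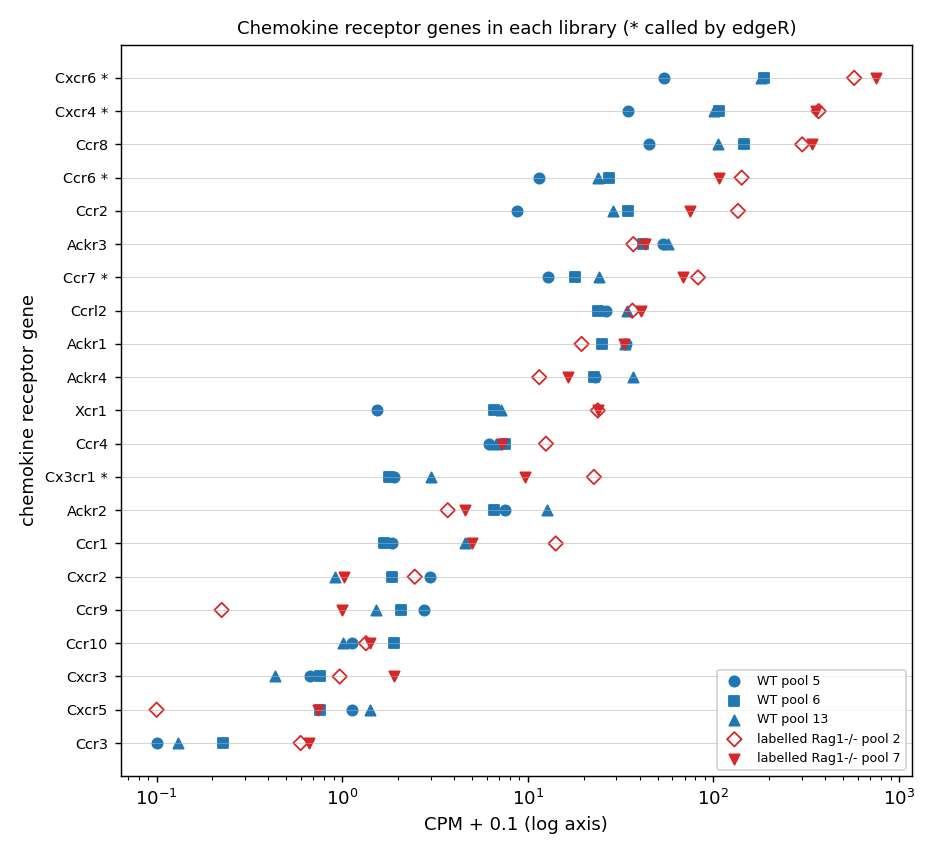
CPM + 0.1 (log axis) of tested chemokine receptor genes, ordered by mean CPM, with 1 point per library; an asterisk marks genes called by edgeR. Both labelled Rag1-/- points lie to the right of all WT points for the 5 called receptors, and WT pool 5 is the lowest WT library for Cxcr6, Cxcr4, Ccr8, Ccr6 and Ccr2.

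Cxcr6, the receptor of Cxcl16, was at 54.3, 187 and 179 CPM in WT pools 5, 6 and 13 and at 573 and 752 CPM in labelled Rag1-/- pools 2 and 7. WT pool 5 was the low library, and the groups did not overlap. The log2 fold change was 2.28 (SE 0.50, edgeR adjusted p = 0.0458), and 1.89 without WT pool 5.

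Ccr6, which answers to Ccl20 and is known from type 17 lymphocytes and innate lymphoid cells, was at 11.4, 27.3 and 23.8 CPM in WT and at 142 and 107 CPM in the libraries labelled Rag1-/-. Its log2 fold change was 2.60 (SE 0.37, edgeR adjusted p = 0.0306). The lowest labelled Rag1-/- library lay well above the highest WT library. Leaving out WT pool 5 gave 2.30, and leaving out labelled Rag1-/- pool 2 gave 2.43.

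Cxcr4, the receptor of Cxcl12 that holds leukocytes in bone marrow and tissue niches, was at 34.4, 107 and 101 CPM in WT and at 369 and 355 CPM in the libraries labelled Rag1-/-. Its log2 fold change was 2.19 (SE 0.45, edgeR adjusted p = 0.0393). Here too WT pool 5 was the lowest library and the groups were apart.

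Ccr7 guides leukocytes from skin to lymph nodes along Ccl19 and Ccl21. It was at 12.7, 17.8 and 24.0 CPM in WT and at 82.5 and 68.1 CPM in the libraries labelled Rag1-/-, a log2 fold change of 2.08 (SE 0.28, edgeR adjusted p = 0.0306). Cx3cr1, the fractalkine receptor of monocytes and some lymphocytes, was the least abundant receptor called. It was at 1.80, 1.70 and 2.91 CPM in WT and at 22.6 and 9.58 CPM in the libraries labelled Rag1-/-, a log2 fold change of 2.92 (SE 0.44, edgeR adjusted p = 0.0306). The labelled Rag1-/- pools differed from each other, and without pool 2 its log2 fold change was 2.24. An exon of Cx3cr1 overlaps Gm33858, and the library kit does not mark strand, so reads of the overlap cannot be told apart.

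Ccr8, the receptor of Ccl1 and Ccl8, is known from skin-resident lymphocytes. Its level was 44.9, 146 and 106 CPM in WT and 301 and 341 CPM in the libraries labelled Rag1-/-. The groups did not overlap, but the log2 fold change of 1.73 (SE 0.44) did not pass the threshold (edgeR adjusted p = 0.0643). Ccr2, the receptor of Ccl2 and of inflammatory monocytes, was at 8.66, 34.5 and 28.7 CPM in WT and at 136 and 74.9 CPM in the libraries labelled Rag1-/-. Its log2 fold change of 2.15 (SE 0.54) missed the threshold as well (edgeR adjusted p = 0.0618). DESeq2 called both genes higher.

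The receptors of skin-homing lymphocytes were not alike. Ccr4, which binds Ccl17 and Ccl22, was at 6.11, 7.47 and 6.62 CPM in WT and at 12.4 and 7.19 CPM in the libraries labelled Rag1-/-, so that pool 7 lay inside the WT range (log2 fold change 0.55, SE 0.31, edgeR adjusted p = 0.318). Ccr10, which binds Ccl27 and Ccl28, was near the lower end of what was tested, at 1.03, 1.80 and 0.911 CPM in WT and at 1.24 and 1.31 CPM in the libraries labelled Rag1-/-. Both labelled Rag1-/- values lay inside the WT range, and the difference was 0.07 with an SE of 0.52 (edgeR adjusted p = 0.955), which does not show that the groups are alike.

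Compared per kilobase of exon, since longer genes collect more counts, Cxcr6, Ccr8 and Cxcr4 were the 3 highest receptors in 4 of 5 libraries. In WT pool 5 Ackr1 took the third place and Cxcr4 the fourth. Ccr8 stood first in WT pools 5 and 6, with levels of 38.2 and 124 CPM per kilobase against 28.1 and 96.8 for Cxcr6. In WT pool 13 the order was reversed by a narrow margin, at 92.9 for Cxcr6 and 89.9 for Ccr8, so the order of these neighbours in WT lay within the spread of pools. In labelled Rag1-/- pools 2 and 7 Cxcr6 led with 297 and 390 CPM per kilobase, ahead of Ccr8 with 256 and 290. Ccr6 and Ccr7 took the fourth and the fifth place in both libraries labelled Rag1-/-, at 61.1 and 46.0 for Ccr6 and 41.7 and 34.4 CPM per kilobase for Ccr7.

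Some receptors outside the named set are given here because of their values, and were thus chosen after these had been seen. Xcr1, known from cross-presenting dendritic cells, was at 1.44, 6.46 and 7.04 CPM in WT and at 23.7 and 23.8 CPM in the libraries labelled Rag1-/- (log2 fold change 2.29, SE 0.59, edgeR adjusted p = 0.0649). Ccr3, the eotaxin receptor, had the highest fitted difference of all receptors but rested on at most 5 counts per WT pool and on 4 and 22 counts in labelled Rag1-/- pools 2 and 7. Ccr9, the gut-homing receptor, had the lowest (log2 fold change −1.69, SE 0.72, edgeR adjusted p = 0.190), at 1.43 to 2.65 CPM in WT and at 0.124 and 0.899 CPM in the libraries labelled Rag1-/-. Of these, the value of 0.124 CPM for Ccr9 lies under the 3 counts of that library, and exons of Ccr9 overlap other genes.

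Of Ackr1, Ackr2, Ackr3, Ackr4 and Ccrl2, which bind ligand without G protein signalling, 4 had a negative log2 fold change and Ccrl2 a positive one. Their summed level was 144, 119 and 174 CPM in WT and 108 and 137 CPM in the libraries labelled Rag1-/-, with overlap. None of the 5 was called by edgeR, 2 were lower at an unadjusted p under 0.05, and DESeq2 called 1 lower. Ackr2, a scavenger of inflammatory CC chemokines known from lymphatic endothelium, was at 7.42, 6.51 and 12.6 CPM in WT and at 3.60 and 4.47 CPM in the libraries labelled Rag1-/- (log2 fold change −1.08, SE 0.39, edgeR adjusted p = 0.136). Ackr4, which clears Ccl19 and Ccl21, was at 23.0, 22.6 and 36.8 CPM in WT and at 11.4 and 16.4 CPM in the libraries labelled Rag1-/- (log2 fold change −0.93, SE 0.31, edgeR adjusted p = 0.118), and overlaps Acad11. Both were below all WT pools in both pools labelled Rag1-/-, while Ackr1 and Ackr3 overlapped and Ccrl2 lay above. Ackr4 had a DESeq2 adjusted p of 0.0422, but its log2 fold change there of −0.96 was under 1 in size. The 4 lymphatic endothelial markers summed to 118 to 169 CPM in WT and to 46.3 and 84.6 CPM in the libraries labelled Rag1-/-, where edgeR called none, DESeq2 called 2 lower and all 4 were lower at an unadjusted p under 0.05. Their part in the values of Ackr2 and Ackr4 was not tested.

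A group of 8 receptor genes lies together on chromosome 9. Of these, 7 were tested, 6 of them, with Ccr2, Cxcr6 and Xcr1 among them, were higher in both labelled Rag1-/- pools than in any WT pool, and Ccr9 was lower in both, where 21.9% and 24% of all genes tested did not overlap in these directions. The median log2 fold change of the 7 was 2.15, and 1 of them, Cxcr6, was called higher, as were 3.57% of all genes. The 8 genes summed to 72.5, 242 and 230 CPM in WT and to 771 and 879 CPM in the libraries labelled Rag1-/-.

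The windows of 250 bases before the start of Ccr6 and Cxcr6 are shown because these receptors were called and are markers of the set. Both were also present among the windows used here, which were placed on RefSeq starts (GRCm38.p6). Capitals mark a match to 1 of 4 short motifs, on either strand, that were chosen after the values had been seen. These were GATAA for GATA factors, AGGTCA for ROR, TGTGGT for RUNX and, for NF-kB, GGGA and TTCC with any 2 bases between them. Ccr6 has one window for each of its annotated starts.
Ccr6, first start, chr17:8235793-8236042, plus strand: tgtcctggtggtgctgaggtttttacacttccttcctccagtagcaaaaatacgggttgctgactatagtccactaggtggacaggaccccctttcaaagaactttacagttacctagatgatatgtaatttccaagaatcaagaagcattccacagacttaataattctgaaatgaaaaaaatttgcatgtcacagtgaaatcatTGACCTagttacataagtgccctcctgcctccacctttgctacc
Ccr6, second start, chr17:8242276-8242525, plus strand: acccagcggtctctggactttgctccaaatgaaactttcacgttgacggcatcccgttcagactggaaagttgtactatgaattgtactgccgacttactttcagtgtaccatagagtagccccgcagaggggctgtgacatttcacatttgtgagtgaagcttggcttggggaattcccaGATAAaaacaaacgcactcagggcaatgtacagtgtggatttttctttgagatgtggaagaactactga
Cxcr6, chr9:123806227-123806476, plus strand: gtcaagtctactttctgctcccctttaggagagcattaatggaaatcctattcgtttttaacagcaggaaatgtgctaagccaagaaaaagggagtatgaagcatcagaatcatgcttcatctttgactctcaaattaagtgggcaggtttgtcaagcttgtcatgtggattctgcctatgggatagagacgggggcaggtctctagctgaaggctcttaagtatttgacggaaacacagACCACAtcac
The first Ccr6 window holds the ROR letters on the opposite strand, the second holds the GATA letters, and the Cxcr6 window holds the RUNX letters on the opposite strand. Over 48 windows of 42 tested members, 12 held GATAA, 13 held AGGTCA and 9 held TGTGGT. Over all 32817 windows of the table the shares were 22.6%, 14.0% and 14.0%. Of 7 windows of 6 called genes, 3 held GATAA, 1 held AGGTCA and 2 held TGTGGT. Such short matches are a description of letters and not of binding.

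**Figure D3:**
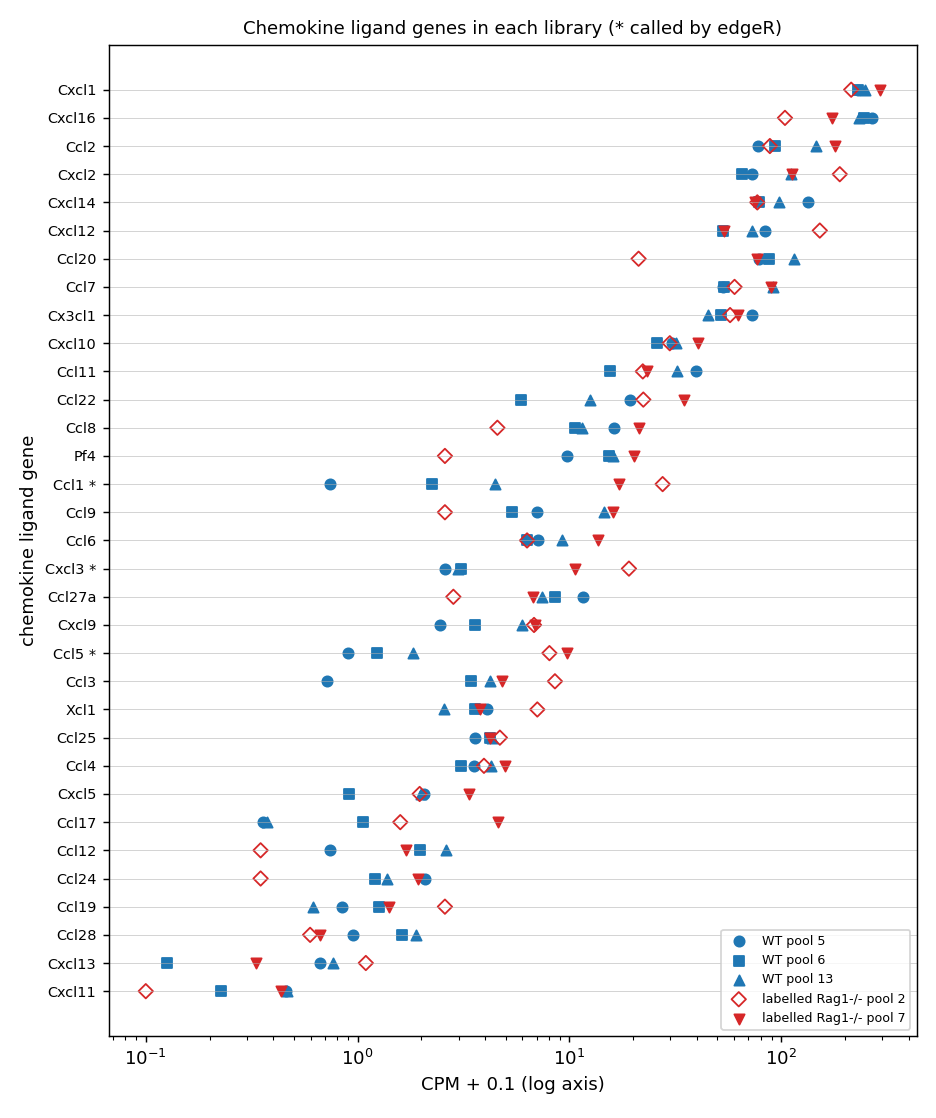
CPM + 0.1 (log axis) of the 33 tested chemokine ligand genes, ordered by mean CPM, with 1 point per library; an asterisk marks genes called by edgeR. Both labelled Rag1-/- points lie to the right of the WT points for Ccl1, Ccl5 and Cxcl3, the 3 genes called, and the most abundant ligands, Cxcl1, Cxcl16 and Ccl2, show differences that did not pass the test.

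Ccl1, a ligand of Ccr8 made by activated lymphocytes, was at 0.644, 2.15 and 4.37 CPM in WT and at 27.5 and 17.1 CPM in the libraries labelled Rag1-/-. Its log2 fold change of 3.25 (SE 0.67, edgeR adjusted p = 0.0401) was the highest of the ligands. The 3 WT pools differed from each other, but the highest stayed below both labelled Rag1-/- pools. Without WT pool 5 the log2 fold change was 2.79.

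Ccl5, which attracts T cells and eosinophils through several CC receptors, was at 0.799, 1.14 and 1.73 CPM in WT and at 7.95 and 9.61 CPM in the libraries labelled Rag1-/- (log2 fold change 2.89, SE 0.41, edgeR adjusted p = 0.0306). Cxcl3, a neutrophil attractant that acts through Cxcr2, was at 2.47, 2.99 and 2.88 CPM in WT and at 19.0 and 10.6 CPM in the libraries labelled Rag1-/- (log2 fold change 2.42, SE 0.33, edgeR adjusted p = 0.0306). The WT pools of Cxcl3 were close together, and without labelled Rag1-/- pool 2 its log2 fold change was 2.00.

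The windows before the starts of Ccl1 and of the 3 neighbouring neutrophil attractants Cxcl1, Cxcl2 and Cxcl3 are shown because all 4 hold the NF-kB letters while only Ccl1 and Cxcl3 were called. In each, the longer run of capitals is a stretch where matches on both strands overlap, and the later capitals in Ccl1 are GATAA.
Ccl1, chr11:82179813-82180062, minus strand: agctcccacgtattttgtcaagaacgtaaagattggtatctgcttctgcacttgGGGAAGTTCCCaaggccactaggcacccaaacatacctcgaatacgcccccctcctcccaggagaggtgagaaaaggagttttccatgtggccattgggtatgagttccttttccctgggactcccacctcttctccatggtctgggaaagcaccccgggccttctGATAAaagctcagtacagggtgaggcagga
Cxcl1, chr5:90890995-90891244, plus strand: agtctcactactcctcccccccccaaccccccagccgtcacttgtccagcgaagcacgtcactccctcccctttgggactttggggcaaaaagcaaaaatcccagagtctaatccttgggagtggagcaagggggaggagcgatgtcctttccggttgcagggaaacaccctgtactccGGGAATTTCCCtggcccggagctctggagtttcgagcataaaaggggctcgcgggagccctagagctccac
Cxcl2, chr5:90903649-90903898, plus strand: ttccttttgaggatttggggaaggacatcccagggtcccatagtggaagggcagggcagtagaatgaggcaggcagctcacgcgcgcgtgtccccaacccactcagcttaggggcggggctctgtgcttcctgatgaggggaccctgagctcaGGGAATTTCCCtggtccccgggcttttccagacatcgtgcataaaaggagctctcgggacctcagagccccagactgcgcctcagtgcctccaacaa
Cxcl3, chr5:90785851-90786100, plus strand: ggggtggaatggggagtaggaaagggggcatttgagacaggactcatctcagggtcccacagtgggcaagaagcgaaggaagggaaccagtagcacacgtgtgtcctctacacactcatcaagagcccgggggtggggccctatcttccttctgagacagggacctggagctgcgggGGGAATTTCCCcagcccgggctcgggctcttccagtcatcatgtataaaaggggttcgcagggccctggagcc
The NF-kB letters were present in 6 of the 48 member windows (Ccl1, Ccr3, Cxcl1, Cxcl10, Cxcl2 and Cxcl3) and in 1.21% of all windows. Of the 6, Ccl1 and Cxcl3 were called.

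Cxcl1 and Cxcl2, which share the motif and the receptor with Cxcl3, were more abundant and were not called. Cxcl1 was at 231, 230 and 248 CPM in WT and at 214 and 292 CPM in the libraries labelled Rag1-/-, on both sides of the WT range (log2 fold change 0.14, SE 0.22, edgeR adjusted p = 0.751). Cxcl2 was at 72.7, 65.1 and 111 CPM in WT and at 189 and 112 CPM in the libraries labelled Rag1-/-, where pool 7 lay just above the highest WT pool (log2 fold change 0.89, SE 0.30, edgeR adjusted p = 0.122). Ccl2, the main monocyte attractant, was at 77.8, 93.5 and 146 CPM in WT and at 88.3 and 180 CPM in the libraries labelled Rag1-/- (log2 fold change 0.39, SE 0.38, edgeR adjusted p = 0.571). Cxcl14, an epithelial chemokine, was at 134, 78.9 and 97.3 CPM in WT and at 77.0 and 74.9 CPM in the libraries labelled Rag1-/- (log2 fold change −0.41, SE 0.25, edgeR adjusted p = 0.354). Per kilobase of exon, Cxcl1 was the highest ligand in all WT pools and in labelled Rag1-/- pool 2, with 114 to 132 CPM per kilobase. In labelled Rag1-/- pool 7 Ccl2 led with 158 CPM per kilobase, next to Cxcl1 with 156.

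The ligands of Cxcr6 and Ccr6 lay on the other side of WT than their receptors. Cxcl16, the ligand of Cxcr6, was at 267, 246 and 234 CPM in WT and at 104 and 173 CPM in the libraries labelled Rag1-/-. The groups did not overlap, with a log2 fold change of −0.80 (SE 0.27) that did not pass the test (edgeR adjusted p = 0.120). With DESeq2 the adjusted p was 0.0430, but the log2 fold change of −0.84 was under 1 in size. Exons of Cxcl16 overlap Zmynd15, so reads of the overlap cannot be told apart and its count is less certain. Ccl20, the ligand of Ccr6, was at 78.6, 87.5 and 115 CPM in WT and at 21.1 and 76.6 CPM in the libraries labelled Rag1-/-. Pool 7 lay just below the lowest WT pool, and the log2 fold change was −0.88 (SE 0.50, edgeR adjusted p = 0.324). The labelled Rag1-/- pools set this value, which was −0.22 without pool 2 and −2.21 without pool 7. Each of these fits holds 1 library labelled Rag1-/-. Cxcl16 was likewise at −0.45 without pool 2 and at −1.32 without pool 7. Of the ligands of the other called receptors, which the rule did not name, Cxcl12 was at 83.8, 52.9 and 72.5 CPM in WT and at 152 and 53.4 CPM in the libraries labelled Rag1-/-, with overlap. Cx3cl1, the ligand of Cx3cr1, overlapped too, with a log2 fold change of 0.12 (SE 0.25, edgeR adjusted p = 0.814). Ccl19, a ligand of Ccr7, did not overlap in its row with counts. It was at 0.747, 1.17 and 0.516 CPM in WT and at 2.48 and 1.31 CPM in the libraries labelled Rag1-/-. Its log2 fold change of 1.20 (SE 0.57) did not pass the test (edgeR adjusted p = 0.235).

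Among ligands of Ccr10, Ccl27a, made by keratinocytes, was at 11.4, 8.41 and 7.35 CPM in WT and at 2.73 and 6.65 CPM in the libraries labelled Rag1-/- (log2 fold change −0.86, SE 0.44, edgeR adjusted p = 0.267), and overlaps Il11ra1. Its log2 fold change was −0.37 without pool 2 and −1.79 without pool 7. Ccl28, made by mucosal epithelium, was at 0.851, 1.52 and 1.79 CPM in WT and at 0.497 and 0.565 CPM in the libraries labelled Rag1-/- (log2 fold change −1.32, SE 0.58, edgeR adjusted p = 0.204). Cxcl14, Cxcl16, Ccl20, Ccl27a and Ccl28 were the 5 ligands, of 33 tested, below all WT pools in both pools labelled Rag1-/-. Of all genes tested, 24% lay below in this way. The keratinocyte list was lower in the same libraries, and lower in pool 2 than in pool 7, and its part in these ligand values was not tested.

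Ccl17 and Ccl22, the ligands of Ccr4 known from dendritic cells, were above all WT pools in both pools labelled Rag1-/-. Ccl17 was at 0.258, 0.963 and 0.273 CPM in WT and at 1.49 and 4.50 CPM in the libraries labelled Rag1-/- (log2 fold change 2.65, SE 0.77, edgeR adjusted p = 0.0848). Ccl22 was at 19.2, 5.80 and 12.4 CPM in WT and at 22.2 and 34.6 CPM in the libraries labelled Rag1-/- (log2 fold change 1.24, SE 0.47, edgeR adjusted p = 0.150). Neither passed the test with edgeR, and DESeq2 called Ccl17. The log2 fold change of Ccl17 was 1.50 without labelled Rag1-/- pool 7, 3.57 without WT pool 6 and 1.60 with thinned libraries, and that of Ccl22 was 0.78 without pool 7 and 1.69 without WT pool 5. The 8 Langerhans and dendritic cell markers summed to 1678 to 4343 CPM in WT and to 2431 and 3817 CPM in the libraries labelled Rag1-/-, within the WT range, and edgeR called none, with 1 lower at an unadjusted p under 0.05 and called lower by DESeq2.

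Ccl8, a further ligand of Ccr8, was at 16.2, 10.5 and 11.4 CPM in WT and at 4.47 and 21.2 CPM in the libraries labelled Rag1-/-, with one pool below and one above the WT range. Its log2 fold change of 0.10 (SE 0.58, edgeR adjusted p = 0.938) thus averages 2 unlike libraries. Pf4, a ligand named after its values had been seen, had the same order, with 9.69 to 16.0 CPM in WT and 2.48 and 20.0 CPM in the libraries labelled Rag1-/-. The 10 macrophage and monocyte markers had summed levels of 274, 339 and 440 CPM in WT and of 146 and 485 CPM in labelled Rag1-/- pools 2 and 7, and 0 were called by edgeR or DESeq2 or had an unadjusted p under 0.05 in edgeR. The part of such cells in Ccl8 and Pf4 was not tested.

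**Figure D4:**
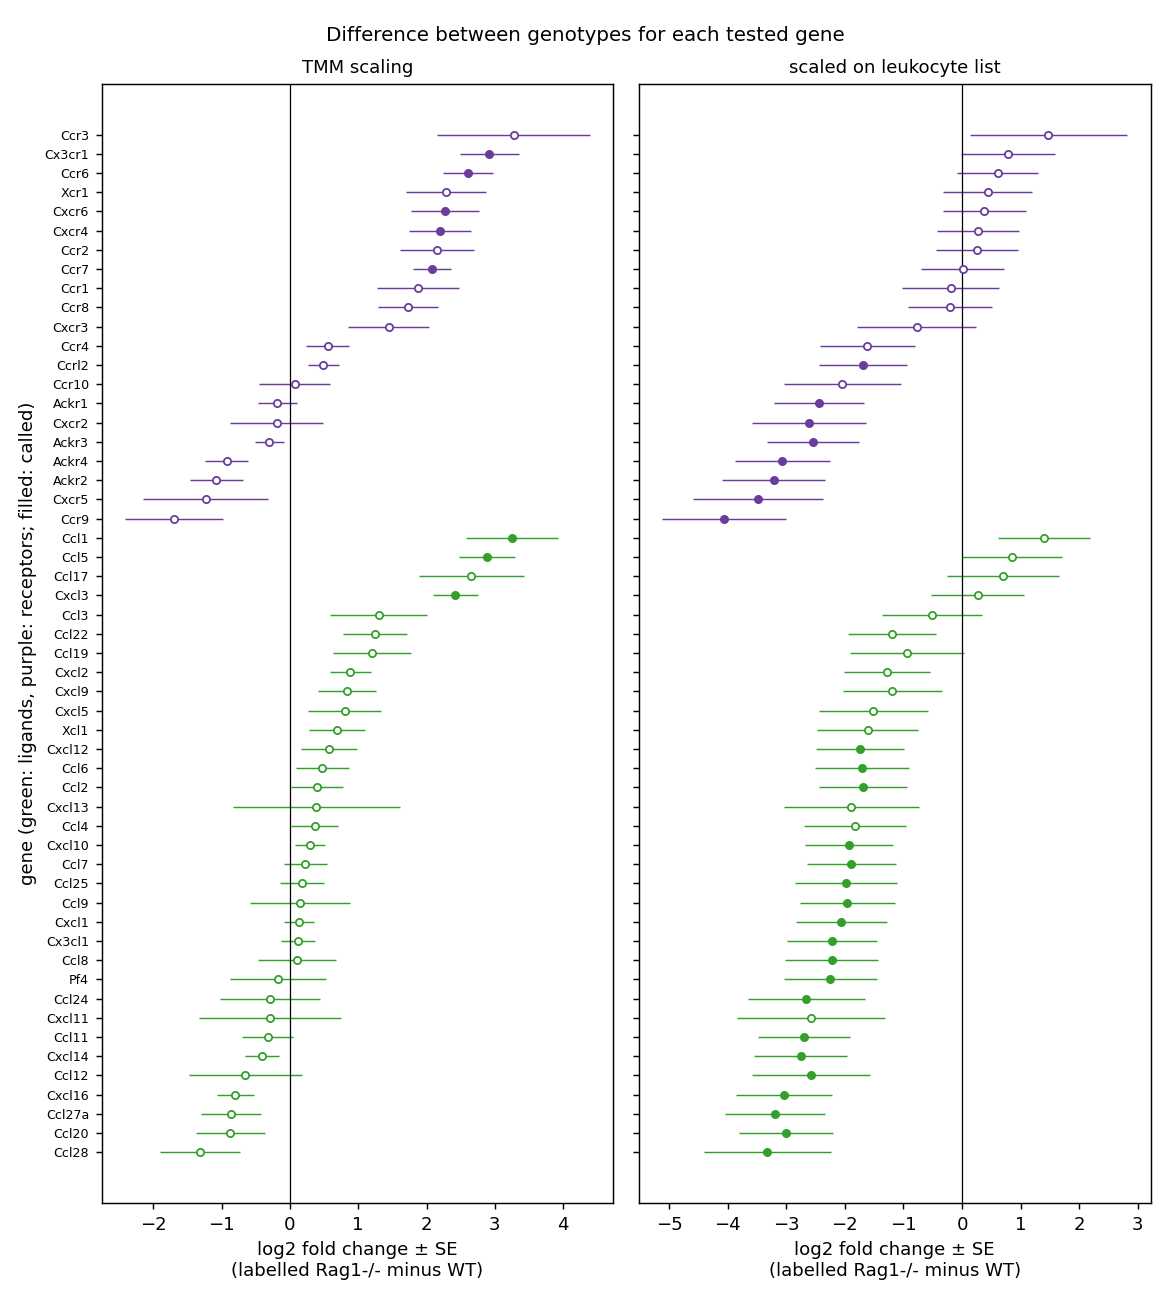
The log2 fold change ± SE (labelled Rag1-/- minus WT) of tested members under TMM scaling (left) and with libraries scaled on the leukocyte list (right), with receptors in purple, ligands in green and called genes filled. The 8 filled points on the left are all above 0, and the 27 filled points on the right are all below 0.

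The leukocyte list moved the same way as the receptors. It had a median log2 fold change of 2.00, beside 1.87 for the signalling receptors. When libraries were scaled on the summed counts of the leukocyte list in place of TMM, the median of all genes moved from 0.02 to −2.18. No member was then called higher, and none reached an unadjusted p under 0.05 in that direction, while 8 of 22 receptors (36.4%) and 19 of 33 ligands (57.6%) were called lower, against 0.0842% of all genes called higher and 69.2% called lower on that scale. The median was −0.57 for receptors and −1.89 for ligands, so receptors and ligands both lay above the median of all genes. The 5 atypical receptors were all called lower on that scale, with a median of −2.54, below that of all genes. Ccr6 had a log2 fold change of 0.61 on that scale (edgeR adjusted p = 0.411), and Ccr7 was at 0.01. The 14 ILC2 markers had a median of 0.002 there, with 0 called higher and 0 lower.

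Expressed as counts per 1000 counts of the leukocyte list, a ratio added after the values had been seen, Ccr6 was at 8.90, 8.92 and 7.73 in WT and at 14.2 and 11.8 in the libraries labelled Rag1-/-. The WT pools, which differed in CPM, came close together on this scale and stayed below both labelled Rag1-/- pools. Cxcr6 was at 42.3, 61.1 and 58.3 in WT and at 57.3 and 83.1 in the libraries labelled Rag1-/-, with overlap. Cxcr4 was at 26.8, 35.0 and 32.7 in WT and at 36.9 and 39.3 in the libraries labelled Rag1-/-, without overlap. Ccr7 was at 9.88, 5.81 and 7.81 in WT and at 8.26 and 7.52 in the libraries labelled Rag1-/-, inside the WT range, and Ccr8 overlapped too.

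Of the called ligands, Ccl1 was at 0.502, 0.704 and 1.42 per 1000 leukocyte counts in WT and at 2.75 and 1.89 in the libraries labelled Rag1-/-. Ccl5 was at 0.623, 0.373 and 0.562 in WT and at 0.796 and 1.06 in the libraries labelled Rag1-/-. Cxcl3 overlapped on this scale. Over all tested members, Ccr3, Ccr6, Cxcr4, Xcr1, Ccl1 and Ccl5 were above all WT pools in both pools labelled Rag1-/-, as were 0.673% of all genes tested. The leukocyte list was itself higher in both labelled Rag1-/- pools, so this scale moves all genes down there by its construction. Ccr3 rested on 0, 5 and 1 counts in WT and on 4 and 22 in labelled Rag1-/- pools 2 and 7. Below all WT pools were 11 receptors and 23 ligands, as were 86.4% of all genes tested.

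**Figure D5:**
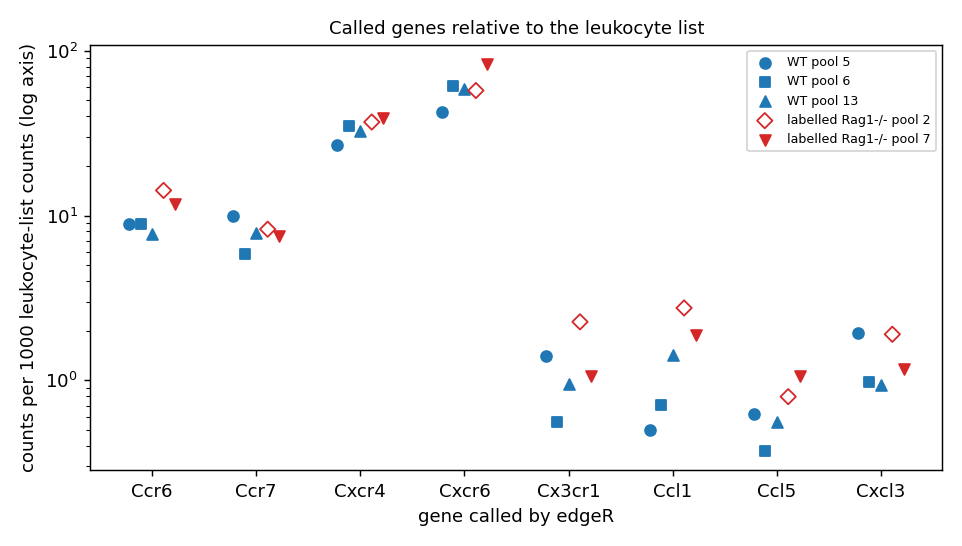
Counts per 1000 leukocyte-list counts (log axis) of the 8 members called by edgeR, with 1 point per library. Both labelled Rag1-/- points stay above all WT points for Ccr6, Cxcr4, Ccl1 and Ccl5 and overlap with WT for Ccr7, Cxcr6, Cx3cr1 and Cxcl3.

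Genes of other lymphocytes were read beside the receptors. The 12 T cell genes summed to 61.0, 122 and 116 CPM in WT and to 363 and 307 CPM in the libraries labelled Rag1-/-. Of 10 tested, Cd3g, Trac and Trbc2 were called higher, while Cd3d and Cd3e overlapped between the groups, Cd5 lay below all WT pools and was called lower by DESeq2, and Cd8b1 was at 0 in all WT libraries and in labelled Rag1-/- pool 2. The 6 NK cell genes summed to 1.91 to 3.67 CPM in WT and to 21.4 and 20.5 CPM in the libraries labelled Rag1-/-, with Prf1 and Gzma called higher. The 7 ILC3 genes summed to 125 to 155 CPM in WT and to 248 and 152 CPM in the libraries labelled Rag1-/-. The sum of pool 7 lay inside the WT range, but the median log2 fold change was 3.53. Gene by gene, 6 of the 7 were above all WT pools in both pools labelled Rag1-/-, as were 21.9% of all genes tested. Il23r, Il22 and Il17f were called higher. With leukocyte-list scaling 3 ILC3 genes were called higher and 1 lower, against 0.0842% and 69.2% of all genes. The 5 B cell genes summed to 1.70 to 5.26 CPM in WT and to 4.35 and 1.10 CPM in the libraries labelled Rag1-/-. Of the 4 tested, 3 had a negative log2 fold change (median −1.54). In edgeR, 1 was higher and 1 lower at an unadjusted p under 0.05, and DESeq2 called 1 B cell gene higher and 1 lower. None of these lists was at 0 in any library, and their part in the levels of Ccr6, Cxcr6, Cx3cr1 and Ccl5, which such cells are known to express, was not tested.

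A further list held 44 genes that act downstream of chemokine receptors or that modify chemokines or their receptors. It was made of G protein subunits, effectors, kinases, arrestins, RGS proteins and modifying enzymes. All 44 were tested and 19 were called higher, against 3.57% of all genes tested. None was called lower by edgeR or DESeq2, with 1 lower at an unadjusted p under 0.05. Their median log2 fold change was 1.10. Rac2, a small GTPase of blood cells, was at 25.0, 57.8 and 57.1 CPM in WT and at 253 and 221 CPM in the libraries labelled Rag1-/- (log2 fold change 2.37, edgeR adjusted p = 0.0306). Rgs14, which shortens G protein signalling, was at 4.46, 13.2 and 11.1 CPM in WT and at 48.1 and 39.9 CPM in the libraries labelled Rag1-/- (log2 fold change 2.22, edgeR adjusted p = 0.0359). Pik3cd, the leukocyte PI3 kinase, was at 22.4, 55.7 and 42.0 CPM in WT and at 239 and 123 CPM in the libraries labelled Rag1-/- (log2 fold change 2.20, edgeR adjusted p = 0.0357). In all 3 genes, WT pool 5 was the lowest library, as in the leukocyte list. With scaling on the leukocyte list, 0 of the 44 were called higher, with 0 at an unadjusted p under 0.05, and 16 lower, against 69.2% of all genes called lower on that scale.

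Without WT pool 5, 6 or 13, edgeR called 0 genes of the whole table. In these fits 3521 to 3874 genes had an unadjusted p under 0.05, among them 10 to 11 receptors that were higher. Leaving out either labelled Rag1-/- pool leaves 1 library in that group, so only the log2 fold changes of those fits are given. Over all leave-one-out fits the log2 fold changes of the 8 called members stayed above 0. They ranged from 2.30 to 2.86 for Ccr6, 1.89 to 2.55 for Cxcr6, 1.83 to 2.46 for Cxcr4 and 1.88 to 2.33 for Ccr7. The range was 2.24 to 3.35 for Cx3cr1, 2.79 to 3.99 for Ccl1, 2.64 to 3.20 for Ccl5 and 2.00 to 2.71 for Cxcl3.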

How the data were processed

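The authors sequenced poly(A) RNA of sorted dILC2s as single reads of 50 bases. Per the labels, reads were aligned to GRCm38 with STAR 2.5 (2 mismatches allowed) and counted with featureCounts 1.5.0-p1. The deposited counts per gene, not normalized, were the input of all main results. The authors also deposited a normalized signal per gene, used for 1 alternative. The labels name Ensembl release 103 and the methods release 84.

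CPM were taken over the total counts, and levels per kilobase over the exon union of GENCODE M21 on GRCm38. The quasi-likelihood test of edgeR 4.0.16 (R 4.3.3), with TMM scaling and genotype as the only term, was run over the 19011 genes that filterByExpr kept, after a check on simulated counts. An SE is the size of the log2 fold change over the square root of F. Groups came from the labels, and no library was left out. The floor of 3 counts covers counting error only. Alternatives were DESeq2 1.42.0, limma 3.58.1 on log2(signal + 1) for genes with a mean over 10, RLE, library size or leukocyte-list scaling, a filter of 10 counts in each library or none, thinning to 8050562 counts, the adjusted p alone, and leaving out each library. No list was tested as a set.

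Named with values in every library were Ccr6, Ccr10, Cxcr6, Ccr4, Ccr8 and their ligands, all members called by edgeR, the 5 ligands and 5 receptors of highest mean CPM, and the 3 called signalling genes of largest fold change in each direction. The members, lists and rules were chosen with earlier results of these data known. The lists of B cell, neutrophil, mast cell, fibroblast, endothelial and housekeeping genes had 0, 1, 0, 0, 0 and 2 genes called higher and 0 called lower. Promoters were taken from a set of windows before RefSeq starts, and that set held none for Ccr7, Ccl5, Cxcl16 and some other members. A receptor that was tested and counted is not reported here by name, and the plots leave it out.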

Additional observations from a re-analysis of the deposited data

How the results depend on the processing

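Directions of the 8 called members held in all alternatives, but their calls did not. Receptors called higher numbered 5, and 10 with DESeq2, 10 without a filter and 9 with at least 10 counts in every library. With leukocyte-list scaling, or without any 1 WT pool, 0 were called higher. Receptors called lower numbered 0, and 1 with DESeq2, 8 with leukocyte-list scaling and 0 without 1 WT pool. Ligands called higher numbered 3, and 5 with DESeq2, 6 without a filter, 0 with leukocyte-list scaling and 0 without 1 WT pool. Ligands called lower numbered 0, and 19 with leukocyte-list scaling and 0 to 4 without 1 library. Of the signalling genes, 19 were called higher and 0 lower, against 0 and 16 with leukocyte-list scaling and 0 to 14 and 0 to 1 without 1 library. RLE scaling, library size, limma, thinning and the adjusted p alone kept all these counts within 1.5 times. Over all genes 679 were called higher and 411 lower, against 1157 and 1488 without a filter and 1198 and 1256 with DESeq2. The numbers were 856 and 641 with at least 10 counts in every library, and 16 and 13164 with leukocyte-list scaling. Without any 1 WT pool, 0 genes were called.

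Over all 55 tested members, 38 log2 fold changes were above 0 with TMM scaling and 12 with leukocyte-list scaling. Among the genes set by rule to be named with values in every library, those that turned sign were members that were not called. With leukocyte-list scaling these were Ccl2 at −1.68, Ccl22 at −1.20, Ccl8 at −2.22, Cxcl1 at −2.06, Cxcl2 at −1.28, Ccr10 at −2.04, Ccr4 at −1.61 and Ccr8 at −0.20. Ccl8 also turned with limma (−0.36), thinning (−0.13), without WT pool 6 (−0.02) and without labelled Rag1-/- pool 7 (−1.56). Ccr10 turned with thinning (−0.13) and without WT pool 5 (−0.06), WT pool 13 (−0.12) or labelled Rag1-/- pool 7 (−0.07), and without that last pool so did Ccl2 (−0.32) and Cxcl1 (−0.20). Over the 5 leave-one-out fits the range was −0.32 to 0.84 for Ccl2, −1.56 to 0.81 for Ccl8, −0.20 to 0.38 for Cxcl1 and −0.12 to 0.44 for Ccr10. The scaling moves all genes by its construction, and the other causes were not tested. No paired analysis was possible because the groups share no replicate numbers. With 2 pools labelled Rag1-/-, 1 of them at 8050562 counts, low members such as Ccr9, Cxcr5 and Cxcl11 had counts at or under 3.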
